A study of Homo sapiens with 4 samples.

Results

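The numbered zinc finger (ZNF) genes were followed in MCF12A cells, an immortalized, non-tumorigenic line of human mammary epithelium, by RNA-seq. Members were chosen by their symbol (ZNF, a number and at most one further letter) and by a mean value of at least 10 over the 4 libraries. Of the 414 such genes listed, 127 met this, and the other 287 did not, against 9590 of all 16811 genes listed. The pass rate was thus 30.7% for the ZNF genes and 57.0% for all genes. The deposited values are signal scaled by the authors for transcript length and between libraries, and pairs of values below give replicate 1 first. In the library where it was lowest, a member rested on a median of 587 estimated reads, and on no fewer than 40. The level decided membership, so it is given only as a description.

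Both groups were MCF12A cells grown in the same medium, with horse serum, EGF, hydrocortisone, cholera toxin and insulin. The 2 wild-type libraries came from unedited cells. The 2 edited libraries came from cells in which CRISPR/Cas9 and a pair of guides had removed the p2 promoter of *C1orf132*, the host gene of miR-29b2 and miR-29c, and which had been grown as colonies from single sorted cells. The labels call the 2 libraries of a group biological replicates and do not say whether both edited libraries came from 1 colony, so a difference between the groups and a difference between a colony and the parental cells cannot be told apart. *C1orf132* itself was not analysed here. The label gives the source as a breast cancer cell line, whereas MCF12A is regarded as non-tumorigenic. Of 9 epithelial markers, all had a mean over 10 in wild-type and 7 in edited cells, and their summed signal was 11082 and 20273 in the wild-type libraries and 4925 and 5764 in the edited ones. *KRT5*, *KRT14*, *KRT17*, *TP63*, *CDH1*, *EPCAM* and *EGFR* had a lower mean in edited cells. *KRT8* and *KRT18* had a higher one, *KRT8* with 378 and 365 against 194 and 175 and *KRT18* with 266 and 296 against 275 and 82.2. Of 8 fibroblast markers only *COL1A1* and *DCN* were listed, with summed signals of 18.3 and 111 in edited and 22.97 and 29.2 in wild-type libraries. *COL1A1* was lower in edited cells (3.19 and 5.58 against 15.6 and 28.1) and *DCN* higher (15.1 and 105 against 7.42 and 1.09). Of 4 blood and endothelial markers 0 were listed. The part of these shifts in the values below was not tested, and in bulk RNA fewer cells of a type and less RNA per cell cannot be told apart.

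Proteins of this family bind DNA through C2H2 zinc fingers, short loops in which a pair of cysteines and a pair of histidines hold a zinc ion, and a row of fingers reads a row of bases. Many also carry a KRAB domain, which recruits TRIM28 (KAP1). TRIM28 in turn brings the histone methyltransferase SETDB1 and HP1 proteins, and so silences transposable elements in many tissues. The genes have multiplied by tandem duplication, above all in clusters on chromosome 19. Near-identical neighbours share sequence, so that 75-base reads can be assigned to the wrong copy, and values of single cluster members are uncertain to that extent.

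Promoter sequences of the members with the widest gaps between the groups are shown first, to let the letters counted in the next paragraph be seen. Each runs from 250 bases before to 50 bases after an annotated start (RefSeq, GRCh38.p14), is printed 5′ to 3′ on the gene's strand, and has in capitals the letters CCGGAAG or their reverse complement CTTCCGG, the core recognized by ETS factors. *ZNF428* (chr19:43619580-43619879, minus strand) and *ZNF655* (chr7:99558392-99558691, plus strand) have windows rich in CpG, with 37 and 25 CpG dinucleotides. *ZNF219* (chr14:21104673-21104972, minus strand) has a CpG-poor window with 3, and *ZNF668* (chr16:31074191-31074490, minus strand) has 22 with the ETS letters at 2 places.
ZNF428: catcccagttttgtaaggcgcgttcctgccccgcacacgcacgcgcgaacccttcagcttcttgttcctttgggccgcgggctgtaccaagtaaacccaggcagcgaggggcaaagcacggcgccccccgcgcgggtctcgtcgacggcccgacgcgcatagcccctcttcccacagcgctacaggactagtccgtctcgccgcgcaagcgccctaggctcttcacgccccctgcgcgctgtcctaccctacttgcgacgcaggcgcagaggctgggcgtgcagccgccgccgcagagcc
ZNF655: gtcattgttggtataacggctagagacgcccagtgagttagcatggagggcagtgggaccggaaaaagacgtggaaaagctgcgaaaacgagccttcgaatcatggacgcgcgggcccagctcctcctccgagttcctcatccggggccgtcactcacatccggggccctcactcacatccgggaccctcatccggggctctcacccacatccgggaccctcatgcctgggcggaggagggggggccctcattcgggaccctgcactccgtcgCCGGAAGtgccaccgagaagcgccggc
ZNF219: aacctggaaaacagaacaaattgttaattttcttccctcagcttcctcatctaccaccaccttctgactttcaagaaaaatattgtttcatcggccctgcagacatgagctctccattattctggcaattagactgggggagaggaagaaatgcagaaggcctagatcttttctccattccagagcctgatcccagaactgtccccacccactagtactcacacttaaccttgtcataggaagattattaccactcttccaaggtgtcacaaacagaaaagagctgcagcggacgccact
ZNF668: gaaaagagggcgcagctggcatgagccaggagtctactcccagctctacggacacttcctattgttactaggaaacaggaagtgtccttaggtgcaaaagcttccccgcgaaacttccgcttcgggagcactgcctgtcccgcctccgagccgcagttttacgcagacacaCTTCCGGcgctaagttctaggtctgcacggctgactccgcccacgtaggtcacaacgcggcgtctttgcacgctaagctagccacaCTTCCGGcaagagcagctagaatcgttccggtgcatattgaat

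A promoter was matched for 109 of the 127 members. The ETS letters, searched on both strands, were in 46 of these (42.2%), in 21.7% of the 7378 promoters of tested genes and in 10.7% of all 27305 RefSeq promoters of the same length. They were in 51.1% of the 45 promoters of KRAB members and 33.9% of the 62 of members with no KRAB match. The letters TATAAA were in 0 of 109 member promoters, in 4.96% of those of tested genes and in 11.95% of all. CCAAT was in 38.5% of member promoters and 36.9% of those of tested genes, and ACTACAA, part of the site of ZNF143, in 8.26% and 4.27%. None of these 4 words contains another. A CpG ratio (observed over expected) of at least 0.6 was found in 89.0% of member promoters, 87.3% of those of tested genes and 49.0% of all. Members with and without the ETS letters differed little in their response: the median log2 fold change, edited minus wild-type on log2(value + 1), was -0.01 over 46 members and 0.01 over 63. The 97 CpG-rich members had a median of 0.02 and the 12 CpG-poor ones, among them *ZNF219* and *ZNF185*, had -0.10. A match is a description of the letters in the window.

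No member was silenced or gained in both edited libraries. Silenced meant that the lower wild-type value was at least 10 times the higher edited one, and gained was the converse. By this measure 0 of 127 members were silenced, where the share over all tested genes was 0.553% (53 of 9590), and 0 were gained, where it was 0.0104% (1 of 9590). The widest gap between the nearest libraries of the groups was 2.27-fold for a member that was lower in edited cells (*ZNF219*) and 2.25-fold for one that was higher (*ZNF428*). At 2-fold, 2 members were lower, *ZNF219* and *ZNF655* (background 3.89%), and 1 was higher, *ZNF428* (background 1.61%). The groups did not overlap, with edited lower, in 35 members (27.6%, background 26.9%) and, with edited higher, in 38 (29.9%, background 38.3%). Gaps at 5-fold also numbered 0 in both directions.

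Fitted with limma across all 9590 tested genes, 1 member was higher and 4 were lower at adjusted p under 0.05. The share of all tested genes was 2.89% higher and 4.2% lower, and that of the members 0.787% and 3.15%. *ZNF428* was the member called higher, and *ZNF219*, *ZNF655*, *ZNF862* and *ZNF185* were those called lower. At unadjusted p under 0.05 stood 28 members (22.0%) and 3095 of all tested genes (32.3%). The calls changed when a library was left out. Without wild-type replicate 1 or wild-type replicate 2 the count was 0 members, while over all genes it was 47 and 4. Without edited replicate 1 it was 2 (*ZNF219* and *ZNF428*), against 424 of all genes (4.42%), and without edited replicate 2 it was 9 (7.09%), against 1431 (14.9%). In each of these fits the lone library of a group was assumed to vary like the others. With 2 libraries a group, an exact permutation test of a single gene cannot give a two-sided p below 0.333.

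By SD, the members' log2 fold changes spread less than those of all tested genes. The SD was 0.489 over the 127 members and 0.808 over all tested genes. A change of more than 1 in either direction was seen in 9 members (7.09%) and in 12.1% of tested genes. Among genes with a mean of 10 to 50, where 114 members lay, the SD was 0.470 for members and 0.781 for all 5398 tested genes, so the spread was smaller in this range of levels too. The 13 members with a mean of at least 50 had an SD of 0.645, against 0.834 over the 4192 tested genes of that level, but 3 of them (23.1%) changed by more than 1, against 11.5%. The 5th and 95th percentiles were -0.98 and 0.81 for members and -1.19 and 1.03 for tested genes. The median standard error of the fit was 0.22 in both sets. The members' median fold change was 0.02, against 0.09 over all tested genes, with 65 members above and 62 below 0. Tested genes with a mean of 10 to 50 also had a median of 0.02, and those of at least 50 had 0.18. The members of these 2 ranges had 0.02 and 0.12, so most members stood near tested genes of their level. When libraries were scaled to equal totals, the median of all genes shifted to -0.03 and that of the members to -0.09, so directions of single members are to be read against a shift of that size. These values describe the genes and are not a test, since genes are not replicates.

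**Figure D1:**
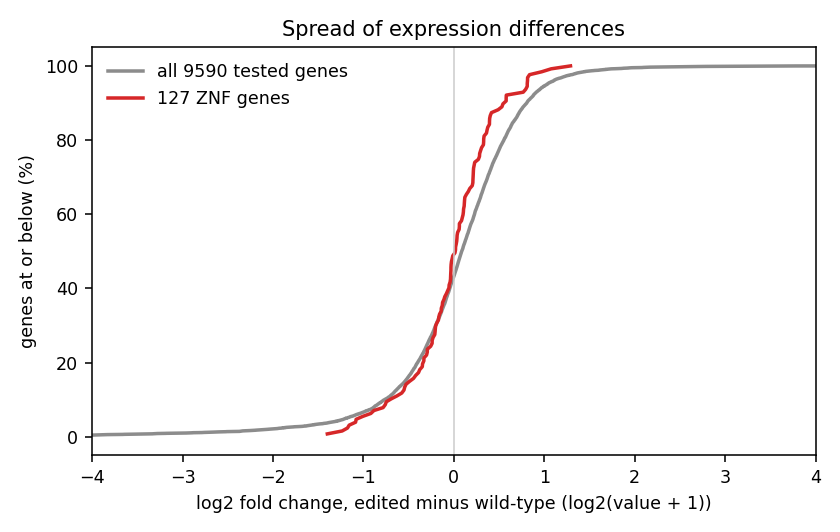
Share of genes (y, %) at or below each log2 fold change, edited minus wild-type on log2(value + 1) (x), for all 9590 tested genes in grey and the 127 ZNF genes in red; the x axis is cut at 4 on either side. The red line is steeper and ends at -1.40 and 1.29, while the grey line runs past both ends.

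The members whose groups lay farthest apart were ranked by the gap between the nearest libraries, and 6 in each direction are given. They were chosen after their values were seen and on the contrast itself, so their values are a description. *ZNF219* (chr14:21090077-21104722, the gene's span in RefSeq on GRCh38.p14, as for the others), a protein of 9 fingers known as a partner of SOX9 in cartilage, read 21.8 and 25.04 in the edited libraries and 70.1 and 56.9 in the wild-type ones. Every edited value was under every wild-type value, with 2.27-fold between the nearest and a log2 fold change of -1.40. *ZNF655* (chr7:99558642-99576453), named for its binding to the signalling protein VAV1, read 50.2 and 53.5 in the edited libraries and 109 and 113 in the wild-type ones. The libraries of each group lay close together and the log2 fold change was -1.09. *ZNF862* (chr7:149838375-149867479), a KRAB protein in which the search found 0 C2H2 fingers, read 10.3 and 13.4 in the edited libraries and 26.3 and 32.2 in the wild-type ones, a log2 fold change of -1.23.

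*ZNF185* (chrX:152898067-152973481) encodes a LIM-domain protein of the actin cytoskeleton, with 0 C2H2 fingers in spite of its name. Its values were 23.6 and 29.3 in the edited libraries and 54.4 and 67.9 in the wild-type ones, and the groups were 1.85-fold apart at the nearest. *ZNF385A*, an RNA-binding partner of p53, gave 39.5 and 60.9 in edited and 114 and 107 in wild-type libraries. *ZNF395*, a gene known to respond to hypoxia, gave 27.4 and 31.02 against 49.9 and 50.1. In both the groups did not overlap, although the edited libraries of *ZNF385A* differed from each other by more than its wild-type libraries did.

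*ZNF428* (chr19:43607224-43619629) was the member with the widest upward gap. It read 54.03 and 63.2 in the edited libraries and 24 and 22.6 in the wild-type ones, a log2 fold change of 1.29. Its protein of 188 residues holds a single finger by the pattern used. *ZNF668* (chr16:31060847-31074240), linked to the DNA damage response, had 16 fingers and read 15.8 and 12.6 in edited and 5.84 and 6.49 in wild-type libraries. It passed the level of 10 through the edited libraries alone. *ZNF814*, a KRAB protein of 23 fingers, read 20.1 and 16.05 against 9.93 and 9.67. *ZNF511* read 132 and 108 against 73.6 and 60.3, *ZNF512* read 30.3 and 23.1 against 13.4 and 15.97 and *ZNF414* read 24.03 and 28.5 against 16.96 and 12.3. In all 6 every edited value was above every wild-type value, by 1.42-fold for *ZNF414* and 1.62-fold for *ZNF814* at the nearest.

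**Figure D2:**
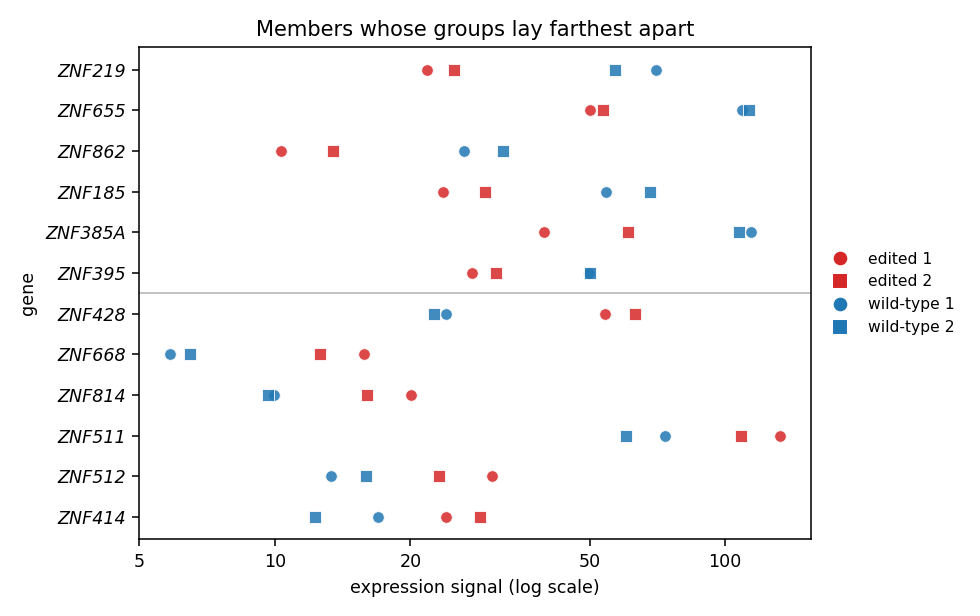
Expression signal on a log axis (x) in each library for the 6 members with the widest gap downward (above the line) and the 6 with the widest gap upward (y), red for edited and blue for wild-type, circles for replicate 1 and squares for replicate 2. Red and blue do not overlap in any of the 12 genes, which were picked for that, and no pair of groups is as much as 3-fold apart at the nearest libraries.

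The 12 members with the highest mean were read with the limma fit, as they were picked by level and not by contrast. *ZNF706*, a short protein of 76 residues, stood first with 269.6 and 207 in the edited libraries and 221 and 203 in the wild-type ones (log2 fold change 0.16 ± 0.22, SE, adjusted p = 0.649 from limma). *ZNF638*, an RNA-associated protein that takes part in silencing unintegrated retroviral DNA, gave 145 and 137 in edited and 115 and 146 in wild-type libraries. *ZNF207*, which helps build the mitotic spindle, gave 134 and 124 against 117 and 117. The ranges of the groups overlapped in *ZNF706* and *ZNF638*. In *ZNF207* the edited values were both higher, by a margin that did not pass (log2 fold change 0.14 ± 0.18, adjusted p = 0.633). *ZNF598*, the ubiquitin ligase that senses collided ribosomes, gave 100.0 and 126 against 115 and 64.7, and the wild-type libraries differed from each other by more than the groups did.

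Among these 12, 1 was called, *ZNF655*, with a change of -1.09 ± 0.17 and a limma adjusted p of 0.0326. Alternatives that kept all 4 libraries put this limma value at 0.0227 to 0.0661, on both sides of the threshold. Fits lacking 1 library gave changes of -1.13 to -1.04. Of all 9590 tested genes 7.09% were called. Of the 4192 with a mean of at least 50, 116 were called higher and 144 lower. The 1 call in 12 thus says nothing particular to these members. *ZNF692* gave 155 and 112 against 87.7 and 88.2 (adjusted p = 0.147), and *ZNF277* 45.7 and 63.95 against 131 and 91.5 (adjusted p = 0.0776). *ZNF511* and *ZNF385A*, given above, had adjusted p of 0.0705 and 0.0535. *ZNF277*, *ZNF511*, *ZNF385A*, *ZNF692* and *ZNF207* thus differed without overlap and without passing in the main fit. So did *ZNF410*, at 49.95 and 54.1 against 75.8 and 56.8 (adjusted p = 0.317 from limma). For 2 of these genes the call depended on the setting. Over the alternatives that kept all 4 libraries, adjusted p from limma was 0.0371 to 0.0808 for *ZNF385A* and 0.0422 to 0.126 for *ZNF277*. For *ZNF511* it was 0.0514 to 0.0861, and it stayed above 0.05 for *ZNF692*, *ZNF207* and *ZNF410* too. *ZNF131*, a BTB-domain factor, gave 68.3 and 62.8 against 72.01 and 62.3, and *ZNF581* gave 51.9 and 68.8 against 105 and 51.98. In both the groups overlapped.

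Members with a known role in other settings were read from a list of 28 genes, of which 26 were listed and 16 tested. None was called higher and 1, *ZNF185*, was called lower (log2 fold change -1.18 ± 0.21, adjusted p = 0.0382 from limma, 0.0188 to 0.202 over the alternatives), beside backgrounds of 2.89% higher and 4.2% lower. *ZNF217*, an oncogene amplified in breast cancer, gave 30.5 and 33.9 in edited libraries against 35.1 and 31.7 (log2 fold change -0.05 ± 0.17). *ZNF143*, an activator of small nuclear RNA and housekeeping promoters, gave 31.8 and 32.3 against 33.4 and 29.4 (log2 fold change 0.03 ± 0.17), and its paralog *ZNF76* gave 24.05 and 29.2 against 20.9 and 26.1. In all 3 the edited and wild-type ranges overlapped.

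*ZNF91*, a KRAB repressor of SVA and LINE-1 elements with 31 fingers, gave 12.6 and 9.63 against 7.77 and 14.1 (log2 fold change 0.06 ± 0.34), and each group spread over a wider range than the difference of their means. *ZNF274*, which binds the 3′ ends of other ZNF genes and recruits SETDB1 there, gave 14.3 and 13.2 against 16.2 and 15.8, with both edited values lower and an adjusted p of 0.496 from limma. *ZNF410*, known for activating *CHD4*, gave 49.95 and 54.1 against 75.8 and 56.8. *CHD4* itself gave 324 and 339 against 360.2 and 332 (log2 fold change -0.06 ± 0.20), with 1 edited value inside the wild-type range and 1 below it. *ZNF148*, a factor binding GC-rich promoters, was lower in both edited libraries, 16.6 and 15.6 against 22.2 and 25.6, and did not pass (adjusted p = 0.112). *ZNF593* and *ZNF622*, which serve the making of the large ribosomal subunit, gave 20.7 and 15.8 against 12.1 and 6.24 and 34.5 and 31.9 against 38.3 and 24.6. *ZNF593* had both edited values higher with an adjusted p of 0.122 from limma, and *ZNF622* overlapped. With a wild-type mean of 9.17, *ZNF593* passed the level rule through the edited libraries, where it is high. Its direction is thus a description, and its value in wild-type replicate 2 rested on an estimated 40 reads.

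Co-repressors of KRAB proteins and other genes of silenced chromatin were read from 1 list of 25 genes, of which 24 were tested. Not every gene of the list serves KRAB proteins. The call counts were 1 higher (*UHRF1*) and 0 lower, beside the backgrounds of 2.89% and 4.2%. *UHRF1*, which reads hemimethylated DNA during replication, gave 23.3 and 22.5 in edited libraries against 12.04 and 11.02 (log2 fold change 0.93 ± 0.19, adjusted p = 0.0469 from limma, 0.0444 to 0.216 over the alternatives). *TRIM28*, the shared co-repressor, gave 1384 and 1175 in the edited libraries and 969.7 and 743 in the wild-type ones. Both edited values were higher, and the difference of 0.59 ± 0.24 did not pass (adjusted p = 0.156). *SETDB1*, the methyltransferase, gave 59.3 and 64.2 against 73.9 and 66.6 (log2 fold change -0.18 ± 0.18). The HP1 genes *CBX1*, *CBX3* and *CBX5* had log2 fold changes of 0.18, -0.04 and -0.41, none past the threshold. *MORC3*, a chromatin ATPase, was the lowest of the list with 12.01 and 16.1 against 25.4 and 27.4 and did not pass (adjusted p = 0.0640). *HDAC2*, a histone deacetylase, gave 227 and 231 against 155 and 133 (adjusted p = 0.0887).

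By protein, 123 members could be scored. A KRAB match, to either of 2 residue patterns, was found in 52 and none in 71. A domain that departs from both patterns is missed, so the 71 may hold KRAB proteins. *ZNF252P* and *ZNF37B* are pseudogenes, and *ZNF274* and *ZNF720* had no usable coding sequence. The median number of fingers was 8 and the highest was 33, in *ZNF462*. KRAB members were lower in level, with a median of 13.3 and a highest mean of 36.5, against 20.7 and 225 for those with no match. They also spread less: the SD of the log2 fold change was 0.415 over KRAB members and 0.549 over the others. The others include all 13 members with a mean of at least 50, whose SD was 0.645, so this comparison is not matched for level. The median fold change was -0.03 over KRAB members and 0.02 over the others. A change of more than 1 was found in 1 KRAB member, *ZNF862*, and in 8 of the 71 others. By the number of fingers, the median fold change was 0.09 for 16 members with 0 to 2, 0.10 for 41 with 3 to 7, -0.03 for 37 with 8 to 12 and -0.12 for 29 with 13 or more. Across the 123 members, Spearman's rho of finger number was -0.09 with the fold change and -0.42 with the level. These points share 4 libraries.

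On chromosome 19 stood 41 members, and 86 lay on 20 other chromosomes. The median log2 fold change was -0.12 on chromosome 19, with 17 above and 24 below 0, and 0.04 elsewhere. The 556 other tested genes of chromosome 19 had a median of 0.24. Taken relative to the median of all genes, the chromosome 19 members stood at -0.21 as deposited and at -0.21 with equal totals. They stood at -0.03 after quantile normalization and -0.03 after cyclic loess, so the value depends on how libraries were scaled. The other genes of the chromosome kept 0.11 to 0.15 above the median of all genes under these 4 scalings. Levels differed as well, with a median value of 14.6 for the chromosome 19 members, 65.4 for those other genes and 41.3 over all tested genes. On the same relative scale, all tested genes with a mean of 10 to 50 stood at -0.07 as deposited and at -0.07 with equal totals. They stood at -0.0005 after quantile normalization and 0.002 after cyclic loess. The part of level in these values was not tested. Of the chromosome 19 members, 26 had a KRAB match (median -0.13, 9 above and 17 below 0) and 14 had none (median 0.16, 8 above and 6 below). Off chromosome 19, 26 KRAB members had a median of 0.10 and 57 others of 0.01.

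**Figure D3:**
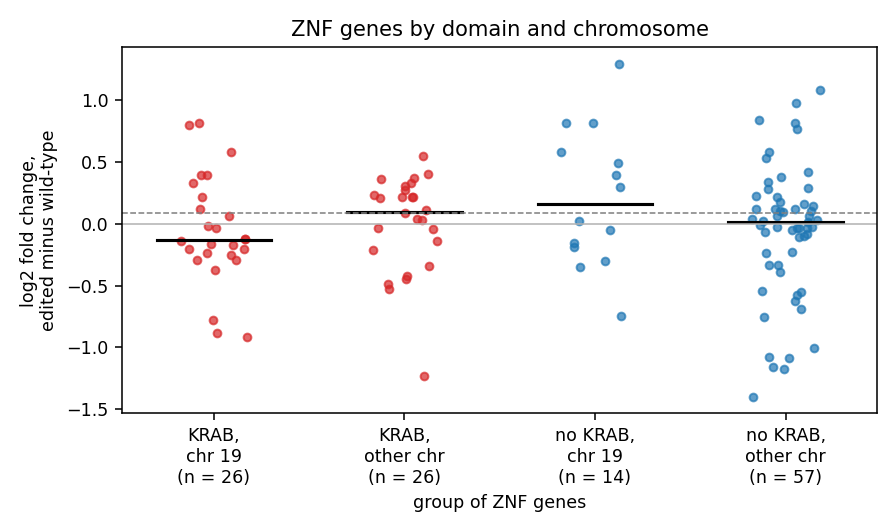
Log2 fold change, edited minus wild-type (y), of each scored member in 4 groups by KRAB match and chromosome (x); black bars are group medians, the grey line is 0 and the dashed line is the median of all tested genes. The medians are -0.13, 0.10, 0.16 and 0.01 from left to right, and the points of all 4 groups overlap.

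Runs of neighbouring ZNF genes on chromosome 19 were joined where the gap was at most 500 kb (RefSeq, GRCh38.p14). A pair of runs held 8 members each. That from 8509678 to 9786160, from *ZNF414* to *ZNF846*, had 3 above and 5 below 0 and a median of -0.03. *ZNF846* passed the level rule through the wild-type libraries and *ZNF562* through the edited ones. The other 6 had 2 above and 4 below 0 and a median of -0.03. The run from 51571283 to 53580269, from *ZNF577* to *ZNF761*, had 1 above and 7 below 0 and a median of -0.23. *ZNF525* gave 7.77 and 5.74 in edited and 10.9 and 15.9 in wild-type libraries, and *ZNF836* gave 9.22 and 8.17 against 16.98 and 14.4. *ZNF480* was the one above 0, at 23.4 and 13.9 against 12.7 and 14.3 with overlapping groups. *ZNF525*, *ZNF836* and *ZNF761* had an edited mean under 10 and passed the level rule through the wild-type libraries, where they are high. Of the other 5, 4 were below 0 (median -0.14). None of the 8 passed the limma test. The 24 listed ZNF genes of this run with a mean under 10 had a median of -0.26, with 20 below and 4 above 0. Over all 7221 genes with a mean under 10 the median was -0.10, with 56.9% below 0. Over the 287 ZNF genes among them it was 0.004, with 143 below 0. The 24 are neighbours of the members, read in the same 4 libraries and open to the same wrong assignment of reads, so they are no independent check. The 3 other tested genes inside the run were all above 0 (median 0.67). With equal totals 7 of 8 members and 21 of 24 under the limit were below 0, and after quantile normalization it was 6 and 15. Without wild-type replicate 2 the counts were 5 of 8 and 17 of 24, with medians of -0.11 and -0.15.

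The run from 57191500 to 58489533, near the end of the long arm, held 7 members, 4 above and 3 below 0, with a median of 0.33. *ZNF544* gave 39.2 and 27.7 against 24.2 and 19.5 and *ZNF584* 19.5 and 11.8 against 8.57 and 8.10, all edited values above the wild-type ones. *ZNF584* and *ZNF814* had a wild-type mean under 10 and passed through the edited libraries, and the other 5 had 2 above and 3 below 0 and a median of -0.19. Its 31 genes under the limit had a median of 0.07, with 22 above 0, which became 14 with equal totals and 27 after quantile normalization. The 4 other tested genes inside were all above 0 (median 0.42). The run from 43530835 to 44500522 held *ZNF428* and *ZNF576* above 0 and *ZNF224* and *ZNF226* below it. *ZNF576* gave 30.7 and 20.97 against 15.3 and 12.8.

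**Figure D4:**
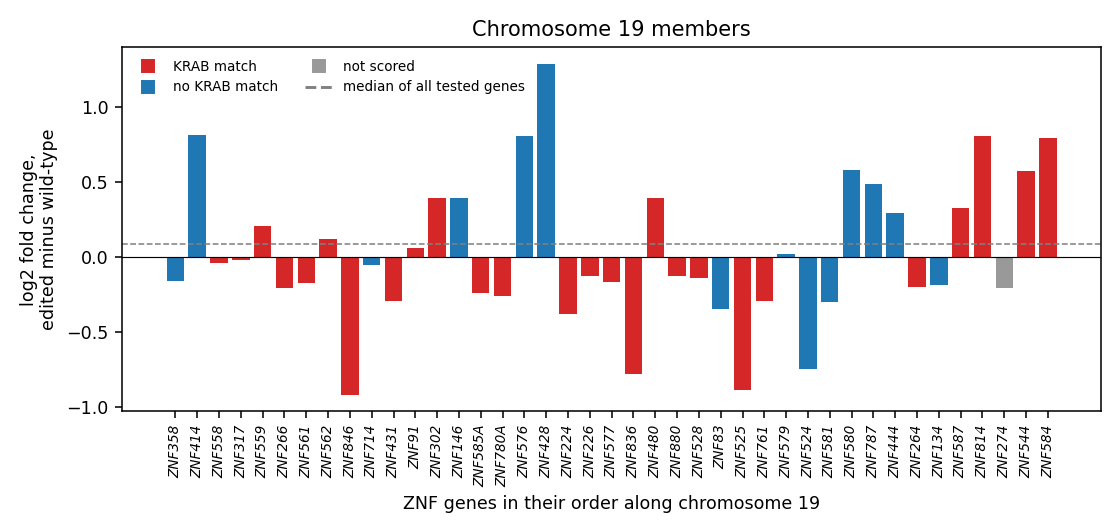
Log2 fold change, edited minus wild-type (y), of the 41 members of chromosome 19 in their order along it (x, not to distance), red with a KRAB match, blue without and grey where not scored; the dashed line is the median of all tested genes. From *ZNF577* to *ZNF761* 7 of 8 bars point down, 3 of them for members that passed the level rule through the wild-type libraries only, and *ZNF428* is the highest at 1.29.

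The other C2H2 families most like the members, ZSCAN, ZKSCAN, ZBTB and ZFP, had 28 tested genes. Of these 0 were called higher and 0 lower by limma, with 4 at unadjusted p under 0.05. Their median log2 fold change was -0.10 and the SD 0.373, so their spread too was under the 0.808 of all tested genes. By family the medians were -0.08 over 8 ZSCAN, -0.11 over 13 ZBTB and 0.04 over 6 ZFP genes, and the single ZKSCAN gene had -0.88.

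At the lower edge of the level rule stood *ZNF74*, *ZNF525* and *ZNF714*, with means of 10.06, 10.08 and 10.13, and just outside it *ZNF354A*, *ZNF24* and *ZNF124*, with 9.98, 9.94 and 9.83. Among members, 8 had a mean under 10 in edited cells and 7 in wild-type cells, so they passed through the other group. The 287 genes under the limit were fitted with all 16811 genes. In that fit 1 was called higher, where the share of all 7221 genes under the limit was 1.07%, and 4 were called lower, where it was 3.55%. A gap of 10-fold was found in 1, downward (background 1.83%), and in 0 upward (background 0.651%).

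That gene was *ZNF608*, which read 0.0484 and 0.129 in the edited libraries and 3.23 and 3.62 in the wild-type ones. Its edited values stood for an estimated 3 and 9 reads and its wild-type values for 180 and 222. *ZNF467* read 3.07 and 1.89 in edited and 13.9 and 14.7 in wild-type libraries, the largest level among those called. *ZNF736* (2.16 and 1.74 against 5.95 and 7.24) and *ZNF503* (1.83 and 1.66 against 5.51 and 7.85) were lower too. *ZNF254* was the one called higher, at 2.97 and 2.78 against 0.347 and 0.480. *ZNF750*, a factor of epidermal differentiation that the role list held, read 0.146 and 0.0131 in the edited libraries and 1.06 and 3.03 in the wild-type ones and was not called (adjusted p = 0.0946 from limma). Its edited values rested on an estimated 5 and 0 reads. *ZNF703*, amplified in luminal breast cancer, read 6.56 and 5.91 against 6.25 and 4.99.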

How the data were processed

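RNA-seq of poly(A) RNA was made as 75-base single-end reads from 2 edited and 2 wild-type MCF12A libraries. The authors deposited 1 table of expression signal for 16811 gene symbols, 1 column a library. The submitters' processing notes name Salmon, HISAT2 and hg38, and versions are not given in the sources used here. The deposited signal is not a read count. In 1022 genes with a single transcript the smallest values times transcript length piled up at 1 step per library (0.100, 0.0900, 0.110 and 0.101 for the edited, then the wild-type libraries), so the signal was taken as scaled for length. Read numbers are a value times its transcript length over that step. These numbers are rough, speak to counting error alone, and count reads, which are no independent molecules here for lack of identifiers. The members' lowest library held a median of 587 estimated reads and at least 40.

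Genes with a mean of at least 10 were fitted on log2(value + 1) with limma 3.58.1 in R 4.3.3 (eBayes with trend, no block), with Benjamini-Hochberg adjustment over 9590 genes and a threshold of 0.05. A fold change on this scale understates that of low genes. P-values set the difference between the groups against the spread between libraries of a group, moderated across all genes fitted. They do not cover variation between edited colonies beyond these libraries. The plan allowed for raw counts, and as the signal is not one, no count test was used. The fit was tested on simulated data. Members, lists and naming rules were chosen with earlier results of these data known. Named were the 12 members of highest mean, list members, and 6 members a direction by the gap between the nearest libraries, the last after their values were seen, since the planned 10-fold and 4-fold limits gave none.

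Positions and promoters came from RefSeq on GRCh38.p14, the build of hg38. Coding sequences and transcript lengths came from GENCODE version 44 on GRCh37. Fingers were counted by the spacing of cysteines and histidines, and KRAB by 2 residue patterns. Alternatives in pseudocount, filter, scaling, block, trend and threshold were run, as were fits lacking 1 library each. Python 3.11.15, pandas 2.3.3 and numpy 2.4.6 were used.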

Additional observations from a re-analysis of the deposited data

How the results depend on the processing

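With 2 libraries a group, the counts of members called (1 higher, 4 lower) were the least stable values. Over the fits that left out one library each they ranged from 0 to 3 higher and from 0 to 6 lower. At a mean of at least 50, which kept 13 members, 0 were higher and 2 lower (15.4% of them, against 10% of all 4192 genes). Without a variance trend 2 were higher, and 6 members (4.72%) were called in either direction, against 626 of all 9590 genes (6.53%). At adjusted p under 0.001 0 members were higher and 0 lower. The share of all genes at that threshold is not given here, so this count says nothing particular to the members. With a replicate block 0 members were higher and 0 lower, with 27 members at unadjusted p under 0.05, and the calls over all genes fell from 680 to 133. The deviations of same-numbered libraries correlated at -0.14 over all tested genes and -0.23 over the members. Whether same-numbered libraries were handled together was not tested. A crossed pairing, chosen after seeing the data, called 1 member higher and 7 lower, and 1002 of all genes. The cause of these differences was not tested.

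The members' median log2 fold change (0.02) was 0.12 at a mean of at least 50, -0.0904 with equal totals and 0.0662 after quantile normalization, and ran from -0.0222 to 0.0756 over the libraries left out. That of chromosome 19 members (-0.12) was 0.0465 at a mean of at least 50, which kept only 2 of the 41. It was -0.234 with equal totals, 0.0131 after quantile normalization and -0.0332 after cyclic loess. Over the libraries left out it was -0.0991 to -0.0196. Off chromosome 19 (0.04) it was 0.12 at a mean of at least 50 and -0.0776 with equal totals, and -0.0258 to 0.0982 over the libraries left out. KRAB members (-0.03) stood at -0.138 with equal totals and 0.0617 after quantile normalization, and at -0.0342 to 0.00777 over the libraries left out, and no KRAB member had a mean of at least 50. Members with no KRAB match (0.02) stood at 0.12 at a mean of at least 50 and -0.0904 with equal totals, and at -0.0222 to 0.0981 over the libraries left out. The counts of silenced and gained members stayed at 0 in every setting tried. Another 64 values recomputed for these counts and medians moved by less than 1 SD between replicates or by less than 1.5 times.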

Other observations

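Members of some chromosomes moved with the other genes of those chromosomes. On chromosome 14 all 3 members were below 0, with a median log2 fold change of -0.55, and the 309 other tested genes there had a median of -0.45, with 266 below 0. On chromosome 7 the median was -0.23 over 13 members and -0.18 over 436 other genes. On chromosome 5 it was 0.24 over 4 members and 0.36 over 413 other genes, and on chromosome 16 it was 0.21 over 11 members and 0.27 over 447. Chromosome 20 differed in sign, with a median of -0.45 over 3 members, all below 0, and 0.22 over 246 other genes. Of these 3, however, *ZNF133* and *ZNF337* had edited means of 9.55 and 8.85. They passed the level rule through the wild-type libraries, where they are high, and *ZNF217* stood at -0.05. *ZNF12* on chromosome 7 also passed through the wild-type libraries. *ZNF354B* on chromosome 5 and *ZNF668* on chromosome 16 passed through the edited ones. On chromosome 10 all 5 members were above 0, with a median of 0.23, beside 0.09 over 350 other genes. *ZNF185* was the only member on chromosome X, where the other 297 tested genes had a median of 0.18. These are values without a test, since the genes of a chromosome share the same 4 libraries.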
